A study of Mus musculus with 24 samples.

Results

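The comparison set neural progenitor cells (NPC) carrying the Q50 allele of Htt against wild-type NPC, using the 2 Q50 and 2 wild-type (WT) NPC libraries named by the labels, 4 of the 24 libraries of the series. The series sequenced small RNAs from mouse embryonic stem cells (mESC) and from NPC derived from them, in 6 Htt genotypes with 2 biological samples in each of 12 groups. Htt encodes huntingtin, and expansion of the CAG tract in its first exon causes Huntington's disease. The Q50 cells are a heterozygous knock-in with 50 CAG repeats in 1 Htt allele, and the WT cells are labelled only as wild type. The other NPC groups are an Htt knockout (KO) and the heterozygous knock-ins Q20, Q92 and Q111, of which Q92 has 92 repeats in its titles and 89 in the growth protocol. All of these mESC were grown on irradiated mouse fibroblasts with LIF, and all NPC were made in N2B27 medium over 7 days and kept on laminin with FGF and EGF. The labels name 1 line for each repeat length, so an effect of 50 repeats and a property of that line cannot be told apart.

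Small RNA libraries of this kind hold several families of short noncoding RNA. Box C/D snoRNAs guide methylation of ribosomal and spliceosomal RNA, small Cajal body RNAs (scaRNAs) guide modification of spliceosomal RNA, and in mammals both are mostly cut from the introns of host genes. Y RNAs bind the Ro60 protein and also occur as fragments in stressed or dying cells. MicroRNAs silence mRNAs that match their seed, and miR-181 and miR-9 are known for their expression in neural cells. Fragments of mitochondrial and structural RNAs are also read in such libraries.

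The Q50 libraries held 472732 and 471465 counts on genes, and the WT libraries 682113 and 440699. Values below are CPM, counts per 1000000 of the library's total on tested genes multiplied by its TMM factor, which centres most genes between libraries. CPM over all genes therefore did not sum to 1000000, but to 1140656 and 1359229 in Q50 and 1068316 and 988094 in WT. A count of 0 allowed up to 4.70 to 8.65 CPM in these libraries (3 counts, for counting error only). Htt itself received 4 and 1 counts in the Q50 libraries and 9 and 2 in the WT libraries, too few to test, and counts per gene cannot show the repeat. All 18 markers listed for neural progenitors had a count in the 4 libraries, while 0 of 10 pluripotency markers and 0 of 14 ES-cell microRNAs did. Of the markers of other cells, 6 of 10 for neurons, 5 of 6 for astrocytes, 2 of 7 for oligodendrocytes, 4 of 10 for fibroblasts and 0 of 8 for endoderm or mesoderm had a count. The summed level of the fibroblast markers was 14.5 and 8.65 CPM in Q50 and 1.57 and 8.97 CPM in WT, and its part in the results was not tested.

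Q50 NPC had more counts on Rny1 and its near copy Gm26168, the 2 miR-181a genes, Mir30a, Malat1, Rpph1, Scarna17 and several mitochondrial genes, and fewer on 6 intronic snoRNA genes. Of 441 genes tested, 29 were called at an edgeR quasi-likelihood adjusted p under 0.05 (6.58%), with 23 higher in Q50 (5.22%) and 6 lower (1.36%). The median log2 change of all 441 genes was 0.04. In all 29 called genes the 2 Q50 libraries lay on 1 side of the 2 WT libraries, while 25.2% of all tested genes had both Q50 libraries higher and 15.2% had both lower. The changes of the higher genes ran from 0.37 to 1.99 on the log2 scale and those of the lower genes from -0.40 to -0.67. The fits share their spread over all 12 NPC libraries, and p-values measure only the spread between these libraries.

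**Figure D1:**
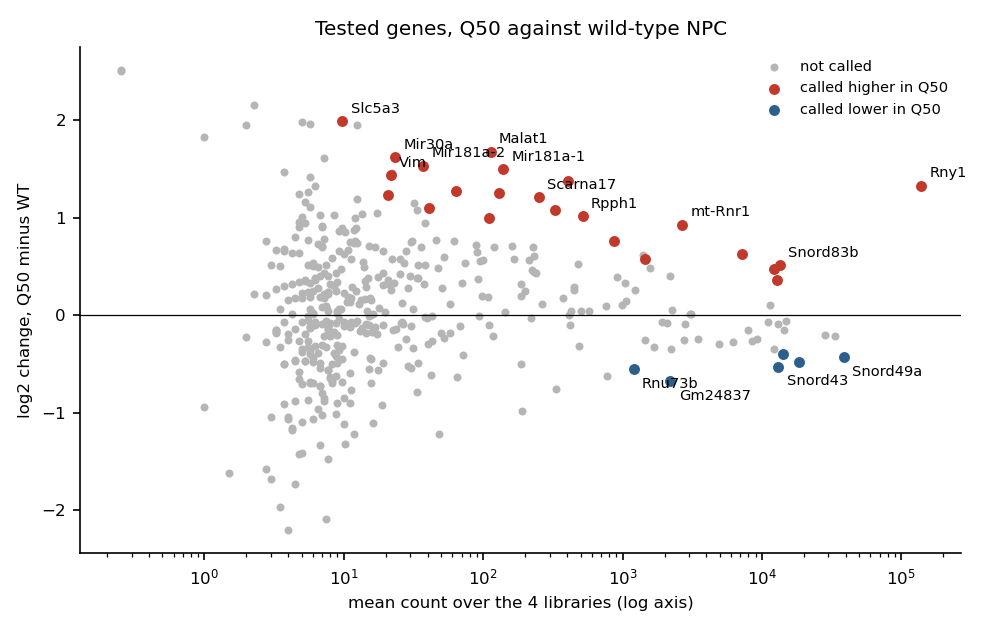
Log2 change of each tested gene between Q50 and WT NPC (vertical axis) against its mean count over the 4 libraries (horizontal log axis). Red points are the 23 genes called higher in Q50, blue points the 6 called lower and grey points genes not called; Rny1 lies apart at the right with the most counts, and the lower calls are all genes with over 1000 counts on average.

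The split between higher and lower calls rests on the scaling. Higher calls were 79.3% of all calls with TMM, 57.9% with DESeq2 size factors (11 higher, 2.49% of the genes tested, and 8 lower, 1.81%) and 28.0% with plain library totals (7 higher, 1.59%, and 18 lower, 4.08%). Library totals shifted the median over all tested genes by -0.25 on the log2 scale. Each of the 29 genes kept its direction under the 12 alternatives that were run. These reuse the same libraries, and as the groups of all 29 did not overlap, leaving out a library could hardly reverse a direction. The 7 higher calls left with library totals were among the 23 and were Rny1, Gm26168, Malat1, mt-Rnr1, Rpph1, Scarna17 and Mir181a-2, and all 6 lower calls also remained. Without the Q20 group in the fit, 17 of 405 genes were called (5 higher, 1.23%, and 12 lower, 2.96%). Leaving out Q50 replicate 1 left 6 calls, all higher, and leaving out Q50 replicate 2 gave 11. A fit of the 4 libraries alone made 0 calls among 234 genes (34 had an unadjusted p under 0.05), and its smallest edgeR adjusted p was 0.256. Without the filter on low counts edgeR made 0 calls among 14269 genes (277 had an unadjusted p under 0.05).

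**Figure D2:**
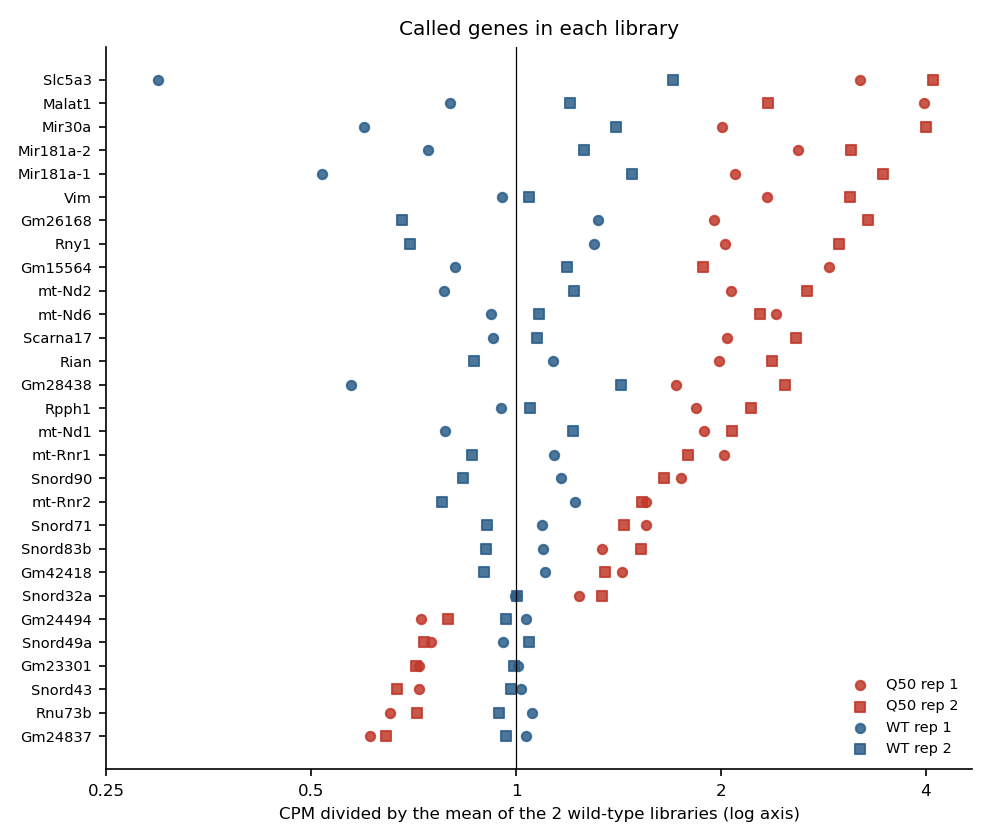
CPM of each called gene in each library, divided by the mean of the 2 WT libraries (horizontal log axis, 1 marks the WT mean). Red marks are Q50 and blue marks WT, circles replicate 1 and squares replicate 2; in every row the 2 Q50 marks lie on the same side of both WT marks, and the spread between replicates is widest for Slc5a3 and narrow for the 6 genes at the bottom.

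The 2 Y RNA genes that rose are a gene and a near copy, shown here because their reads can be exchanged between them. Capitals mark the bases that have no identical partner when the 2 genes are aligned (GENCODE M21 transcripts, GRCm38).
Rny1: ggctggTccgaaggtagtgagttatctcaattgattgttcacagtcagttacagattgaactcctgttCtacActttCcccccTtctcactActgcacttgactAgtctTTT
Gm26168: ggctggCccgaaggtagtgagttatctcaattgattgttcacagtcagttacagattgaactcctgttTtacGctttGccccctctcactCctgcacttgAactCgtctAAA
Of 113 aligned positions, 102 are identical, most of them in the 5′ part, and 38.6% of the 30-base stretches of Gm26168 occur in Rny1.

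Rny1 (chromosome 6, 47788069 to 47788180, minus strand, GRCm38) was the most abundant RNA of all 4 libraries. It took 32.6% and 40.3% of the counts in Q50 and 22.3% and 13.0% in WT. Both Q50 libraries were higher, and the libraries within each group also differed, most in WT. The log2 change was 1.33 ± 0.25 (SE, edgeR adjusted p 0.00732), a 2.51-fold difference. Gm26168 (chromosome 6, 122623547 to 122623658) received 426 and 599 reads in the Q50 libraries and 443 and 159 in the WT libraries, or 1028 and 1727 CPM and 694 and 356 CPM. Its change of 1.38 ± 0.31 (edgeR adjusted p 0.0109) is uncertain as a separate event, and the count ratio of Rny1 to Gm26168 was 362 and 317 in Q50 and 344 and 359 in WT. Rny3, the other Y RNA gene tested, lies near Rny1 (chromosome 6, 47781624 to 47781725, plus strand) and is 72.3% identical to it. It had 2222 and 2612 CPM in Q50 and 2503 and 1847 CPM in WT, so its groups overlapped (log2 change 0.15 ± 0.16, edgeR adjusted p 0.743). The ratio of Rny1 to Rny3 counts needs no scaling between libraries. It was 167 and 210 in Q50, 95.2 and 69.3 in WT, and from 47.5 to 149 in the other 8 NPC libraries. As Rny1 was called higher in these same libraries and Rny3 changed little, a higher ratio in Q50 than in WT was built in.

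Rny1 takes so many counts that its level bears on the shares of all other classes. Genes of the snoRNA biotype took 47.6% and 42.2% of counts in Q50 and 57.4% and 62.6% in WT. With Rny1 left out of the total, the snoRNA share was 70.7% in Q50 and 72.9% in WT (means of 2 libraries). Mitochondrial genes took 3.61% and 2.80% in Q50 and 2.78% and 2.05% in WT, so the Q50 libraries were higher by a narrow margin, and without Rny1 the means were 5.02% and 2.97%. The exact (Clopper-Pearson) 95% binomial interval of each of these shares was at most 0.143 percentage points to either side, which covers counting error only.

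**Figure D3:**
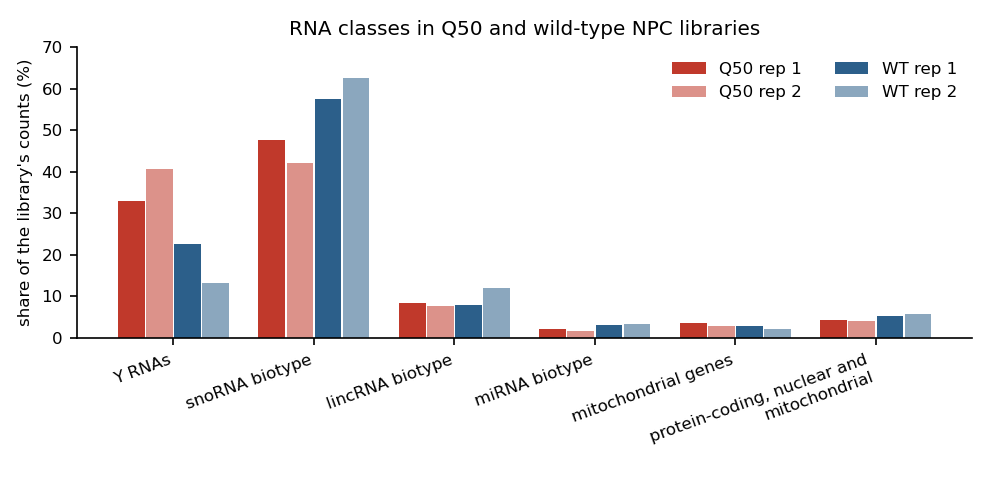
Share of each library's counts (vertical axis, percent) taken by 6 RNA classes, with red bars for Q50, blue bars for WT, and darker bars for replicate 1. Y RNAs took 32.9% and 40.6% in Q50 against 22.6% and 13.2% in WT, and the snoRNA biotype was lower in both Q50 libraries.

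With TMM scaling box C/D snoRNAs were called in both directions. Of 41 tested genes with a Snord symbol, 4 rose (5.22% of all genes did), 2 fell (1.36% of all genes) and 35 did not pass, with a median log2 change of 0.02 beside 0.04 over all genes. With DESeq2 size factors 1 of the 41 was called higher and 2 lower, and with library totals 0 higher and 7 lower. A further 54 tested genes of the snoRNA biotype have neither a Snord nor a Snora symbol, and they include Scarna9 and Scarna10, which are also counted among the scaRNAs. Of these 54, 4 fell and 0 rose (median -0.08), beside 1.36% and 5.22% of all genes. The lower calls among them were 5 with DESeq2 size factors and 8 with library totals. Snord83b and Snord43 are cut from introns of the same host, Rpl3, which encodes a ribosomal protein of the large subunit, and moved apart. Their sequences are shown with those of Gm24837 and Snord49a, the lower genes with the largest change and with the most counts. Capitals mark TGATGA, the box C motif, within the first 30 bases and CTGA, the box D motif, within the last 20, searched on the transcript strand (GENCODE M21, GRCm38).
Snord83b: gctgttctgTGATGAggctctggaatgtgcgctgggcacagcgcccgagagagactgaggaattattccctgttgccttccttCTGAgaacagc
Snord43: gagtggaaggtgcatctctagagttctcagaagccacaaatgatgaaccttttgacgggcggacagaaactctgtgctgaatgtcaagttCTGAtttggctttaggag
Gm24837: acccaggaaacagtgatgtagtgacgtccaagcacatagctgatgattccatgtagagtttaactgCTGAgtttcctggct
Snord49a: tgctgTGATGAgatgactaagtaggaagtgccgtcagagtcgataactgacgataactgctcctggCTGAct
Of 1449 annotated snoRNA genes of 60 to 150 bases, 22.5% hold TGATGA in that window, 35.1% hold CTGA and 21.3% hold both, as Snord83b and Snord49a do.

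Snord83b (chromosome 15, 80078498 to 80078591, minus strand) stood at 32982 and 37580 CPM in Q50 and at 26993 and 22298 CPM in WT. Both Q50 libraries were higher (log2 change 0.52 ± 0.11, edgeR adjusted p 0.0109). Snord43 (chromosome 15, 80082847 to 80082954, minus strand, annotated with the miRNA biotype) stood at 23345 and 21674 CPM in Q50 and at 33004 and 31836 CPM in WT. Both Q50 libraries were lower (log2 change -0.53 ± 0.11, edgeR adjusted p 0.00911). Within a library the count ratio of Snord83b to Snord43 was 1.41 and 1.73 in Q50 and 0.818 and 0.700 in WT, and it lay between 0.777 and 1.10 in the other 8 NPC libraries. Q50 had the 2 highest ratios of the 12 NPC libraries, and such a ratio needs no scaling factor. As 1 gene was called higher and the other lower in these same libraries, a higher ratio in Q50 than in WT was built in. The exons of Rpl3 received 1 to 4 counts per library, so the host transcript could not be compared. The call for Snord83b was lost with library totals (0.24, adjusted p 0.258), while that for Snord43 was not (-0.79, adjusted p 0.00164).

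**Figure D4:**
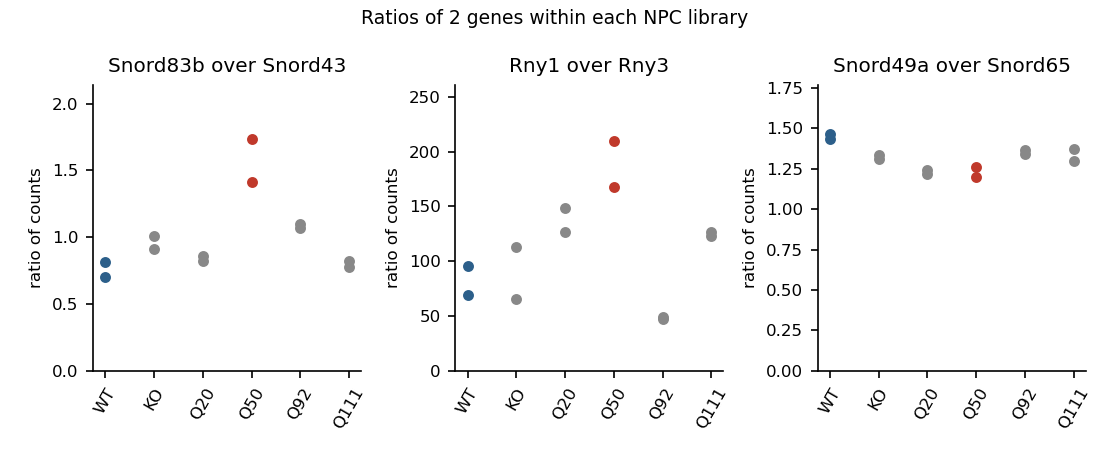
Ratio of the counts of 2 genes within each of the 12 NPC libraries (vertical axes from 0), by genotype, with Q50 in red, WT in blue and the other groups in grey. The ratio of Snord83b to Snord43 was 1.41 and 1.73 in Q50 and at most 1.10 elsewhere. Rny1 over Rny3 was also highest in Q50, and Snord49a over Snord65 was highest in WT. Each pair holds a gene called in these same libraries, so the differences between Q50 and WT were built in.

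The other 5 lower genes were also snoRNAs in introns of host genes. Gm24837 (chromosome 4, 41211502 to 41211582, minus strand, in an intron of Ubap2) had 1422 and 1257 counts in Q50 and 3715 and 2423 in WT, or 3431 and 3624 CPM against 5818 and 5433 CPM. It showed the largest decrease of the 6, at -0.67 ± 0.14 (edgeR adjusted p 0.00911), and WT was 1.59-fold higher. Gm23301, in an intron of Rpl17, fell to 32765 and 32514 CPM from 45841 and 45257 CPM (-0.48 ± 0.10, adjusted p 0.00973). Snord49a (chromosome 11, 62603450 to 62603521, plus strand, in an intron of 2410006H16Rik) stood at 70462 and 68805 CPM in Q50 and 89896 and 98020.4 CPM in WT (-0.43 ± 0.09, adjusted p 0.00973). Gm24494, in an intron of Rabggtb (chromosome 3, 153911610 to 153911690), fell by 0.40 ± 0.10 (adjusted p 0.0310). Rnu73b, in an intron of Rps3a1 (chromosome 3, 86140618 to 86140688), fell by 0.55 ± 0.15 (adjusted p 0.0419). In each of these 5 genes both Q50 libraries lay below both WT libraries.

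The neighbours of these genes that were tested in the same host did not pass. In the host of Snord49a, Snord65 had a log2 change of -0.20 ± 0.10 (edgeR adjusted p 0.346) and Snord49b of -0.25 ± 0.14 (adjusted p 0.417). The ratio of Snord49a to Snord65 counts was 1.26 and 1.20 in Q50, 1.46 and 1.43 in WT and from 1.22 to 1.37 in the other 8 NPC libraries. As Snord49a was called lower in these same libraries and Snord65 changed less, a lower ratio in Q50 than in WT was built in. In Rpl17, Gm26202 had a change of -0.06 ± 0.10 (adjusted p 0.853) and Snord58b of -0.26 ± 0.15 (adjusted p 0.445). In Rps3a1, Snord73a had -0.31 ± 0.19 (adjusted p 0.451), and in Ubap2, Gm22888 had -0.40 ± 0.30 (adjusted p 0.572). These differences between neighbours were not tested.

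Besides Snord83b, 3 Snord genes rose. Snord90, in an intron of Rc3h2 (chromosome 2, 37400047 to 37400157, minus strand), had 1046 and 826 counts in Q50 and 1072 and 537 in WT. After scaling these were 2524 and 2381 CPM against 1679 and 1204 CPM, so both Q50 libraries were higher (0.76 ± 0.17, edgeR adjusted p 0.0109). Snord71, in an intron of Ap1g1 (chromosome 8, 109839295 to 109839379), stood at 3984 and 3693 CPM in Q50 and 2803 and 2325 CPM in WT (0.58 ± 0.15, adjusted p 0.0271). Snord32a, in an intron of Rpl13a (chromosome 7, 45127382 to 45127464), had the smallest change called, 0.37 ± 0.10 (adjusted p 0.0419). With library totals none of these 3 calls held, and the change of Snord32a was 0.09. No box H/ACA snoRNA, the class that guides pseudouridylation, was called among 11 tested by edgeR (0 at an unadjusted p under 0.05, median -0.06). Over all genes 6.58% were called, so 0 of 11 lies near that share.

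MicroRNA genes carried few counts, and 3 of them rose. These were 2 of 5 tested on the list of neural microRNAs and 1 of 10 tested on the list of remaining microRNAs. Genes on the list of neural microRNAs summed to 560 and 882 CPM in Q50 and to 185 and 388 CPM in WT. Of the 5 tested, 2 were called, both higher, beside 5.22% of all genes (median log2 change 1.00 beside 0.04 over all genes). Both encode the same mature miR-181a-5p, so its reads cannot be assigned to 1 gene, while the 3p arms differ. The mature sequences of the called genes are given from RefSeq (GRCm38.p6), with the seed, bases 2 to 8, in capitals.
miR-181a-5p: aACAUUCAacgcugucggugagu
miR-181a-1-3p: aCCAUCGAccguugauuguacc
miR-181a-2-3p: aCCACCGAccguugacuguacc
miR-30a-5p: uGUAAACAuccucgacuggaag
miR-30a-3p: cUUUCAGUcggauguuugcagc
The table counts genes, so the arm behind each count is not known.

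Mir181a-1 (chromosome 1, 137966455 to 137966541, plus strand, in an intron of Gm4258 and overlapping an exon of A430106G13Rik) had 158 and 218 counts in Q50 and 60 and 120 in WT. In CPM these were 381 and 628 against 94.0 and 269, so the groups did not overlap although replicates of each differed (1.50 ± 0.39, edgeR adjusted p 0.0310). Mir181a-2 (chromosome 2, 38852735 to 38852810, plus strand, opposite an intron of Nr6a1) had 50 counts in each Q50 library and 22 and 26 in WT. Its 121 and 144 CPM in Q50 lay above 34.5 and 58.3 CPM in WT (1.53 ± 0.34, adjusted p 0.0109), a 2.90-fold difference. Mir30a (chromosome 1, 23272269 to 23272339) had 24 and 40 counts against 11 and 18, and rose by 1.62 ± 0.45 (adjusted p 0.0408). It was the only call among the 10 tested genes on the list of remaining microRNAs, beside 5.22% of all genes called higher. The median log2 change of that list was 0.26, and the 1 let-7 gene tested was not called. Mir9-1 had 12 and 16 counts in Q50 and 12 and 8 in WT, which gave 1.00 ± 0.45 (adjusted p 0.285). With library totals the calls for Mir181a-1 (adjusted p 0.110) and Mir30a (adjusted p 0.107) were lost. Leaving out WT replicate 1, the lower of the WT libraries, gave 0.87 for Mir181a-1, which was then not called.

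Mitochondrial genes were mostly higher in Q50. Of 19 tested, 5 rose and 0 fell, beside 5.22% and 1.36% of all genes. The median log2 change was 0.65, and 18 had a change above 0, where 234 of all 441 genes did. In 13 of the 19 both Q50 libraries lay above both WT libraries, as in 25.2% of all tested genes. The 5 were the 2 ribosomal RNAs and 3 mRNAs for subunits of respiratory complex I. The 12S rRNA gene mt-Rnr1 (mitochondrial genome, 70 to 1024) had 8452 and 7484 CPM in Q50 and 4764 and 3605 CPM in WT, with both Q50 libraries higher (0.93 ± 0.17, edgeR adjusted p 0.00732). The 16S rRNA gene mt-Rnr2 (1094 to 2675) had 19347 and 19108 CPM against 15255 and 9695 CPM (0.62 ± 0.16, adjusted p 0.0310).

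Among the complex I mRNAs, mt-Nd2 had 158 and 171 counts in Q50 and 92 and 100 in WT and rose by 1.25 ± 0.32 (edgeR adjusted p 0.0271). The change of mt-Nd1 was 1.00 ± 0.26 (adjusted p 0.0310), and that of mt-Nd6 was 1.24 ± 0.35 (adjusted p 0.0419). The mt-Nd6 gene lies on the other strand and only its end overlaps mt-Nd5, and whether strand was used in counting is not given in the sources used here. Gm28438, a nuclear pseudogene that shares 99.1% of its 30-base stretches with mt-Nd3, rose by 1.08 ± 0.31 (adjusted p 0.0444), and its reads may belong to mt-Nd3. None of the 10 mitochondrial tRNAs tested was called by edgeR (4 at an unadjusted p under 0.05), beside 6.58% of all genes, although 9 had a change above 0. Of these mt-Tq had 4447 and 2840 CPM in Q50 and 3363 and 1377 CPM in WT, so its groups overlapped. With library totals the median of the list was 0.40 beside -0.21 over all genes, and the only call among the 5 that held was mt-Rnr1 (0.67, adjusted p 0.0425).

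Malat1, Rpph1 and Rian were among the genes that rose. Malat1, a long noncoding RNA of nuclear speckles (chromosome 19, 5795690 to 5802672), had 213 and 105 counts in Q50 and 66 and 69 in WT, or 514 and 303 CPM against 103 and 155 CPM. Q50 replicate 1 was the highest library, and both Q50 libraries lay above both WT libraries (1.68 ± 0.29, edgeR adjusted p 0.00732). Rpph1, the RNA of ribonuclease P, which trims the 5′ ends of tRNAs (chromosome 14, 50807449 to 50807767), had 606 and 611 counts in Q50 and 483 and 373 in WT. It rose by 1.02 ± 0.20 (adjusted p 0.00732), and 70.3% of its stretches lie in a transcript of Ccnb1ip1, which had 0 counts. The other members of the list of structural RNAs did not pass. Rn7sk, the 7SK RNA that holds back a transcription elongation factor, had 127 and 112 counts in Q50 and 208 and 128 in WT (0.04 ± 0.22, adjusted p 0.978), and the vault RNA Vaultrc5 had 22 and 21 against 25 and 23 (0.33 ± 0.35, adjusted p 0.743). Rian, a noncoding RNA of the imprinted Dlk1-Dio3 region, had 49 counts in each Q50 library and 43 and 23 in WT (1.10 ± 0.31, adjusted p 0.0419). The snoRNA genes AF357428, AF357341 and Gm25854 of that region were not called, and Mir341 and Mir409 had 0 counts in the 4 libraries, so they could not be compared.

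Scarna17, a scaRNA, had 301 and 318 counts in Q50 and 210 and 170 in WT and rose by 1.21 ± 0.23 (edgeR adjusted p 0.00732). Its reads can be split with Gm25443, which shares 82.0% of its stretches. Of the 12 scaRNAs tested it was the only call, beside 6.58% of all genes, with a median of 0.49 for the list. A change above 0 was found in 11 of the 12, where 234 of all 441 genes had one, and in 9 both Q50 libraries lay above both WT libraries, where 25.2% of all genes did. Scarna6 (0.47 ± 0.22, adjusted p 0.307) and Scarna9 (0.43 ± 0.24, adjusted p 0.417) are examples that did not pass. Of 10 tested rRNA-like loci, 3 rose and 0 fell (median 0.54), beside 5.22% and 1.36% of all genes. These were Gm42418 and the mitochondrial mt-Rnr1 and mt-Rnr2, which are already counted among the mitochondrial genes. Gm42418 (chromosome 17, 39846958 to 39848788), which shares 96.4% of its stretches with an annotated rRNA, rose by 0.48 ± 0.11 (adjusted p 0.0137). Gm26917, another of these loci, had 25622 and 25820 counts in Q50 and 38454 and 43618 in WT, and its groups overlapped in CPM (-0.21 ± 0.19, adjusted p 0.667). Without WT replicate 1 it was called lower (-0.55). Gm15564, annotated antisense to introns of Kpna1 and Parp9, rose by 1.27 ± 0.31 (adjusted p 0.0205).

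Of the nuclear protein-coding genes tested, only 2 were called, both with few counts. This is a smaller share than over all genes, where 29 of 441 were called (6.58%). Snrpb, picked after its values were seen as the one with the most counts, had 8659 and 8499 in Q50 and 18975 and 12440 in WT (-0.34 ± 0.12, edgeR adjusted p 0.101). It was called lower with library totals (-0.62), by the DESeq2 Wald test (-0.46), without the Q20 group (-0.54), without Q50 replicate 2 (-0.57) and without WT replicate 2 (-0.48). Which part of Snrpb these reads came from cannot be seen in counts per gene. Vim, which encodes the intermediate filament vimentin (chromosome 2, 13573927 to 13582826), had 27 and 30 counts in Q50 and 17 and 13 in WT (1.43 ± 0.40, edgeR adjusted p 0.0419). Slc5a3, a myo-inositol transporter gene inside an exon of Mrps6, had 14 and 15 counts against 2 and 8 (1.99 ± 0.57, adjusted p 0.0444). Vim was the only call among 9 tested neural progenitor markers, whose median was -0.11. Of these 9, 3 had a change above 0, where 234 of all 441 genes did. Both Q50 libraries were higher in 2 and lower in 3, where 25.2% and 15.2% of all tested genes were. The glutamate transporter gene Slc1a3, a marker of radial glia, had 18 and 28 counts in Q50 and 58 and 89 in WT, with both Q50 libraries lower (-1.22 ± 0.42, adjusted p 0.114). It was called with library totals (-1.53), with the replicate number as a block (-1.19) and without WT replicate 1 (-1.73). Fabp7 (0.54 ± 0.39, adjusted p 0.572), Ptprz1 (0.76 ± 0.43, adjusted p 0.437) and Tnc (-0.08 ± 0.33, adjusted p 0.970) did not pass. Neither did the receptor genes Egfr, with 3 counts in each Q50 library and 20 and 5 in WT (-1.47 ± 0.65, adjusted p 0.267; called without WT replicate 2, -2.04), and Notch1 (-0.90 ± 0.57, adjusted p 0.495), nor Nes, which encodes the intermediate filament nestin (-0.70 ± 0.72, adjusted p 0.741). In bulk RNA, fewer cells of a type and less RNA per cell cannot be told apart.

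With 6.58% of all tested genes called, 0 calls in a list of few genes lies near the share over all genes. Several other lists had no calls by edgeR. These were 13 spliceosomal snRNAs (0 at an unadjusted p under 0.05; median 0.01), 15 replication-dependent histone genes (0; median -0.32), 6 ribosomal protein mRNAs (0; median 0.02) and 3 snoRNA host transcripts (0; median -0.20). Members with values were the U5-like Gm25313 (0.45 ± 0.27, adjusted p 0.453), Hist1h4c (-0.55 ± 0.50, adjusted p 0.688), the H/ACA gene Snora31 (-0.50 ± 0.28, adjusted p 0.417) and the host gene Gas5, with 8 and 2 counts in Q50 and 12 and 18 in WT (-1.11 ± 0.57, adjusted p 0.368). The 3 tested imprinted genes had a median of 1.26 and 0 calls (1 at an unadjusted p under 0.05), among them Peg10 with 7 counts in each Q50 library and 2 and 6 in WT.

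The levels over all 6 NPC groups are given as a description. The genes were picked by their Q50 and WT values in these same libraries. An outer rank of either group was therefore partly built in, and no share over all tested genes is set beside these counts. Q50 had the highest mean of the 6 groups for 19 of the 23 higher genes, and in 16 both Q50 libraries lay above all 10 other NPC libraries. These 16 included Rny1, Snord83b, Mir181a-1, Mir181a-2, Mir30a and mt-Nd2. WT had the lowest mean of the 6 groups for 7 of the 23, and for Malat1 and Gm15564 both WT libraries were the lowest of the 12. In 5 of the 6 lower genes both WT libraries lay above all 10 others, and Q50 was the lowest group for 0. Snord49a was the exception, with its highest level in Q111.

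**Figure D5:**
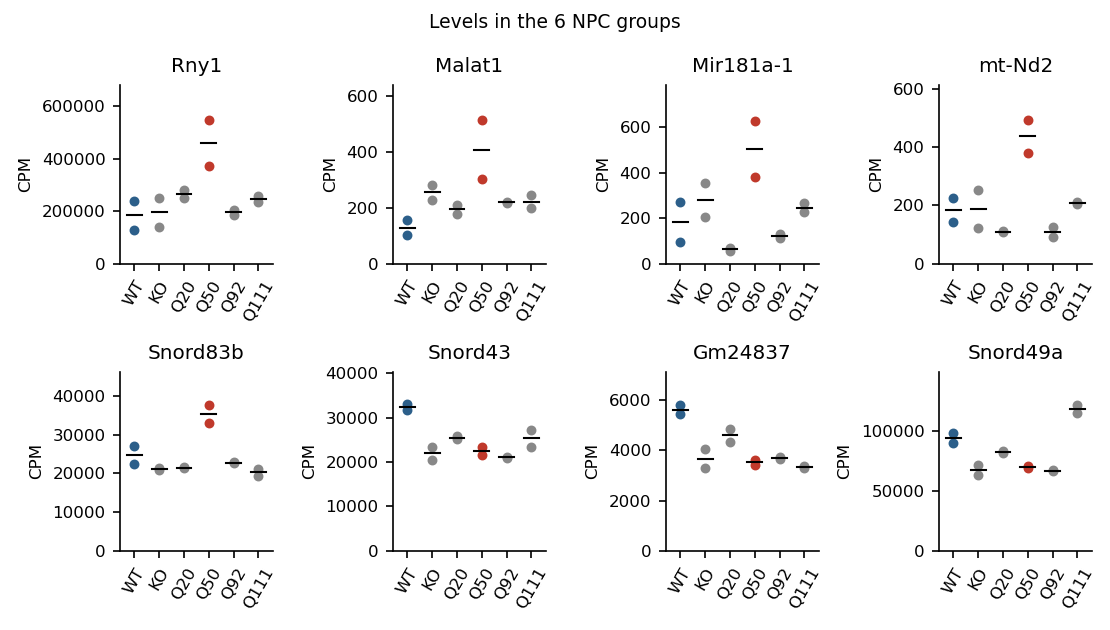
CPM of 8 called genes in each library of the 6 NPC groups (vertical axes from 0), with a bar at the mean of 2 libraries, Q50 in red and WT in blue. For Rny1, Malat1, Mir181a-1, mt-Nd2 and Snord83b the Q50 libraries are the highest of 12, and for Snord43 and Gm24837 the WT libraries are.

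Q50 was also set against the mean of the Q92 and Q111 groups, the lines with longer repeats, which does not use the WT libraries but shares the Q50 libraries with the comparison above. In that test, with TMM scaling, 60 of 441 genes were called by edgeR (13.6%), 50 higher (11.3%) and 10 lower (2.27%). The TMM factors of the Q50 libraries, 0.894 and 0.748, lay below those of Q92 (1.17 to 1.18) and Q111 (0.900 to 0.925). A lower factor gives a higher CPM, so this split can also shift with the scaling. Its values under other scalings are not given here. The smallest p-values among the higher genes were those of Snord90 (1.32 ± 0.14, adjusted p 8.14e-06), mt-Ts2, a mitochondrial serine tRNA (1.36 ± 0.14, adjusted p 8.14e-06), and Snord87 (0.87 ± 0.09, adjusted p 8.14e-06). Among the lower genes they were those of Snora21 (-1.76 ± 0.30, adjusted p 0.000607), Snord49a (-0.35 ± 0.08, adjusted p 0.00702) and Snord15a (-0.63 ± 0.16, adjusted p 0.0107). Against WT, mt-Ts2 had 4056 and 4048 CPM in Q50 and 3486 and 2298 CPM in WT (0.48 ± 0.17, adjusted p 0.115).

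Side by side, and with TMM scaling in both tests, the change of Rny1 was 1.33 against WT and 1.07 ± 0.21 against Q92 and Q111 (edgeR adjusted p 0.00183). Mir181a-1 had 1.50 and 1.55 ± 0.33 (adjusted p 0.00368), and Mir181a-2 had 1.53 and 2.00 ± 0.30 (adjusted p 0.000173). Snord83b had 0.52 and 0.72 ± 0.09 (adjusted p 5.58e-05), and mt-Nd2 had 1.25 and 1.54 ± 0.27 (adjusted p 0.000735). The pair of Malat1 values was 1.68 and 0.90 ± 0.24 (adjusted p 0.0178). For mt-Rnr1 the change was 0.93 against WT and 0.23 ± 0.14 against Q92 and Q111 (adjusted p 0.309), and its highest mean was in Q111. Of the lower genes, Snord43 had -0.53 and -0.04 ± 0.09 (adjusted p 0.815), and Gm24837 had -0.67 and 0.01 ± 0.12 (adjusted p 0.992).

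In mESC, before differentiation, Q50 was compared with WT in libraries that the NPC comparison does not use. edgeR called 0 of the 1766 genes tested there, and 47 had an unadjusted p under 0.05 (DESeq2 0 and 25). Rny1 had 18568 and 5285 counts in Q50 mESC and 30233 and 11131 in WT mESC (-0.76 ± 0.44, unadjusted p 0.107). The difference of the Q50 effect between NPC and mESC was tested over all 24 libraries, and edgeR called 0 of 904 genes (52 had an unadjusted p under 0.05; DESeq2 0 and 36). Rny1 had the smallest p, with a difference of 2.17 ± 0.46 (edgeR adjusted p 0.0836). For Snord83b the difference was 1.39 ± 0.33 (adjusted p 0.140), and for Malat1 it was 2.63 ± 0.77 (adjusted p 0.440). Replicates differed more in mESC than in NPC, with a biological coefficient of variation of 37.9% in the mESC fit and 17.3% in the NPC fit.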

How the data were processed

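Small RNAs of 24 libraries were counted per Ensembl gene. Per the submitters' processing notes, CASAVA 1.8, STAR, HTSeq and the GRCm38.p6 build were used; settings, adapter trimming, strand use and the treatment of reads that map to several genes are not given in the sources used here. The deposited table holds whole-number read counts, not normalized, for 55335 genes. Columns were assigned by the sample descriptions, and columns named Q89 were taken as the Q92 line. Symbols and positions came from GENCODE M21, matched to 55154 identifiers.

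Tests used edgeR 4.0.16 (R 4.3.3) with glmQLFit and glmQLFTest, TMM scaling, filterByExpr (minimum count 10, minimum total 15) and Benjamini-Hochberg adjustment over all genes tested. Each of the 4 comparisons was adjusted separately. Genes were called at an adjusted p under 0.05. A permutation of 2 against 2 libraries cannot give a p below 0.333, so classes and lists are described by values and counts. The tests were run on simulated counts with the same dispersion for every gene and with higher and lower changes balanced. Spread that differs between genes, and changes mostly in the same direction, were not covered.

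Named genes were the called genes without overlap between groups (up to 15 per direction by p), the 3 smallest p per direction in the other tests, and up to 4 members of each list by level; other called genes and neighbours in a host gene were added after their values were seen. Members and lists were chosen with earlier results of these data known. Alternatives were DESeq2 1.42.0 (size factors, Wald test), library totals, no filter, a replicate block, fewer groups and leaving out each library. Replicate pairs differed by more than sampling noise (chi-square per degree of freedom 19.0 for Q50 and 39.6 for WT), so no library was counted as a copy.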

Additional observations from a re-analysis of the deposited data

How the results depend on the processing

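The count of 29 calls between Q50 and WT NPC became 19 with DESeq2 size factors, 17 without the Q20 group, 0 without the filter on low counts (14269 genes tested, 277 at an unadjusted p under 0.05) and 0 with only the 4 libraries, and 6 to 37 when each library was left out in turn; library totals (25), the DESeq2 Wald test (27, with 282 adjusted p-values missing) and library totals without Rny1 (29, chosen after seeing the data) stayed within 1.5 times. The 60 calls against Q92 and Q111 became 20 without the filter, 109 with only the groups compared, 36 without Q20 and 26 to 51 with a library left out. The 0 calls in mESC, and likewise for the difference between cell types, became 1 without the filter and 0 to 4 with a library left out. With the replicate number as a block the 4 tests gave 34, 74, 1 and 1 calls, and Rny1 was the gene called for the difference between cell types. The numbers were not treated as pairing, since 4 of 15 pairs of NPC groups had correlated replicate differences over 0.1. These correlations included 0.437 for KO and WT, 0.183 for KO and Q50 and 0.148 for Q50 and WT.

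Of 348 results of the 29 genes under 12 alternatives, all from the same libraries, 169 were still called and 0 reversed. Among genes not called, Rny3 turned to -0.12 with library totals, -0.24 without the filter and -0.041 without Q20, with -0.14 to 0.36 over the left-out libraries; Gm26202 turned to 0.035 and Tnc to 0.016 with library totals without Rny1. Rn7sk turned to -0.079 with DESeq2 size factors, -0.081 with the DESeq2 Wald test, -0.23 with library totals, -0.33 without the filter, -0.16 without Q20 and -0.048 with only the 4 libraries, with -0.14 to 0.10 over the left-out libraries. Vaultrc5 turned to -0.0033 without the filter, and Gm26917 ran from -0.55 (called, without WT replicate 1) to 0.091 (without WT replicate 2). Left out of the totals, Rny1 took the Y RNA share to 0.479% in Q50 and 0.321% in WT, the mitochondrial share to 5.02% and 2.97%, the snoRNA share to 70.7% and 72.9%, and the scaRNA level to 3632 and 2190 CPM. The cause of these changes was not tested. The 2 libraries per group and the few counts on microRNAs and mRNAs limit what could be called.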
